A study of Mus musculus with 8 samples.

Results

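Major histocompatibility complex (MHC) class I molecules show peptides from inside the cell at its surface. Cytosolic proteins are cut by the proteasome, the fragments are pumped into the endoplasmic reticulum by the TAP transporter, trimmed there, and loaded onto a heavy chain paired with beta-2 microglobulin. Nearly all nucleated cells make some class I, and interferon and the transactivator NLRC5 are known to raise it. Transcripts of this pathway were examined in mouse granulosa cells, which surround and nurse the oocyte. The genes were chosen by name with their PND4 and PND1 FPKM already known, and the choice named 9 genes, of which 7 are among the 11783 genes of the filtered table: B2m, H2-K1, H2-D1, H2-T23, Tap1, Tapbp and Erap1. Tap2 and Nlrc5 have no row among those listed and were not analysed here.

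The cells were granulosa cells of C57BL/6 mice, taken at postnatal day 4 (PND4, 4 libraries) or postnatal day 1 (PND1, 4 libraries), with no further treatment or allele named in the labels. The design text says that they were dissociated from ovaries, and the series is framed around primordial follicle activation. Neither separate animals nor pooling is stated for the libraries, so errors and p-values here measure the spread between libraries. Expression is given as FPKM, which is scaled to transcript length and to library size, so levels can be compared between genes. Read depth is unknown.

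Some libraries stood apart in transcripts of other cells. All 20 granulosa markers were listed, and their summed FPKM was 1043 to 1306 at PND4 and 1000 to 1357 at PND1. Most of this sum came from Krt18 and Krt8, with means of 493 and 373 FPKM over all 8 libraries. Both keratin genes are also on the surface epithelium marker list, so the sum is not a measure of granulosa cells alone. Of 22 leukocyte markers 10 were listed, and Ptprc, Tyrobp, Itgam and the T cell genes Cd3e and Cd3g were not among them. Their sum was 280 FPKM in PND4 replicate 1, 2.92 to 36.6 FPKM in the other PND4 libraries and 10.9 to 39.3 FPKM at PND1. The oocyte marker sum was 234 FPKM in PND4 replicate 3, 21.1 to 57.0 FPKM in the other PND4 libraries and 16.6 to 103 FPKM at PND1. Libraries numbered 1 also had the most genes listed at exactly 0, with 1097 at PND4 and 1234 at PND1, against 222 to 858 in the other libraries. An exact 0 can be a failed estimate. In bulk samples, fewer cells of a type and less RNA per cell cannot be told apart.

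B2m encodes the shared light chain and lies outside the MHC, on chromosome 2 from 122147686 to 122153083 (GRCm38, plus strand). H2-K1 (chromosome 17 from 33996017 to 34000347, minus strand) and H2-D1 (chromosome 17 from 35262730 to 35267499, plus strand) encode the classical heavy chains. Promoter sequence was read for these 3 genes because their libraries did not overlap between the ages in the deposited values. The sequences are from RefSeq on GRCm38.p6, whose promoter table holds all 7 listed genes. Capitals mark 4 searched strings, on either strand, and no 2 of the marked strings overlap. They are the NF-kappa-B string (GGGG, ATT and CCCC in 1 run), the interferon string (GAAA, any 2 bases and GAAA again, the core of the interferon response element), TGACG, a partial site of CREB and ATF factors, and ATTGG, the inverted CCAAT box bound by NF-Y. The B2m stretch is chr2:122147487-122147685 on the plus strand and the H2-K1 stretch is chr17:34000348-34000483 on the minus strand. GENCODE places an exon over the H2-D1 window, so only 2 stretches of 30 bases around the matches are shown for it, chr17:35262914-35262943 and chr17:35262993-35263022 on the plus strand.
B2m: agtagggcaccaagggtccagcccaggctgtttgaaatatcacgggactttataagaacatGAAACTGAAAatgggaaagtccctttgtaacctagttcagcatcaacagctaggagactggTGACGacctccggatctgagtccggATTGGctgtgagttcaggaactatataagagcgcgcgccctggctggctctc
H2-K1: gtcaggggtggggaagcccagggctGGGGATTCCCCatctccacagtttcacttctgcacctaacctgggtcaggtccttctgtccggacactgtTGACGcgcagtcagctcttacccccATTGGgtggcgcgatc
H2-D1, first stretch: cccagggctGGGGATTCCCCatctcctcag
H2-D1, second stretch: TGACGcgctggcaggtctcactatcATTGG

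In all 3 genes TGACG was followed after 20 bases by ATTGG. The spacing was noticed in these sequences and then counted, so its presence in all 3 was fixed and the counts are no test. The spaced pair was present in 31 of 32851 promoter windows of the same length (0.0944%), counting either strand, and in no window of H2-T23, Tap1, Tapbp or Erap1. Of 27 genes whose names begin with H2-K, H2-D, H2-Q, H2-T or H2-M, 3 had it, namely H2-K1, H2-D1 and H2-M3. Alone, TGACG was present in 20.8% and ATTGG in 37.4% of all windows. The NF-kappa-B string was present in H2-K1 and H2-D1 and in 0.0304% of all windows, while B2m had none. The interferon string was present in B2m, H2-T23 and Erap1 and in 3.44% of all windows. From the NF-kappa-B string to the end of ATTGG, H2-K1 and H2-D1 shared 89 of 100 bases, and between TGACG and ATTGG 13 of 20. A match describes these letters and is not a shown binding site. Only the exact strings were searched, so a window without a match can still hold a variant of the site. Outside the 3 genes, 24 other genes had the spaced pair, of which 12 could be tested. Of these, 7 had higher mean log2 values at PND4, beside 60.3% of all tested genes. Their median difference was 0.11, beside 0.078 over all tested genes. Of the 12, 0 had all PND4 libraries above all PND1 libraries and 0 had them below. Over all tested genes these shares were 3.16% and 1.08%.

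The light chain and both classical heavy chains stood higher at PND4 than at PND1. B2m had 264, 191, 288 and 218 FPKM in the 4 PND4 libraries, against 166, 102, 139 and 169 FPKM in the 4 PND1 libraries. Every PND4 library was above every PND1 library, with the lowest value in PND1 replicate 2. B2m averaged 240 ± 43.7 FPKM at PND4 and 144 ± 30.9 FPKM at PND1 (SD, n = 4 each). The log2 difference, PND4 minus PND1 on the log2(FPKM + 1) scale used throughout, was 0.74 (limma 95% interval 0.35 to 1.14). By level, B2m ranked between 153 and 242 of all listed genes in the PND4 libraries and between 263 and 495 in the PND1 libraries.

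H2-K1 had 49.9, 49.8, 64.8 and 56.5 FPKM in the PND4 libraries, against 47.2, 23.3, 33.8 and 24.5 FPKM in the PND1 libraries. PND1 replicate 1 lay close under the lowest PND4 library, and the other 3 PND1 libraries lay well below it. H2-K1 averaged 55.2 ± 7.09 FPKM at PND4 and 32.2 ± 11.04 FPKM at PND1 (SD, n = 4 each), a log2 difference of 0.81 (95% interval 0.34 to 1.28).

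H2-D1 had 28.98, 29.4, 29.5 and 35.8 FPKM in the PND4 libraries, against 17.5, 15.2, 19.9 and 15.95 FPKM in the PND1 libraries. The ages were clearly apart, and the spread within each was small. H2-D1 averaged 30.9 ± 3.25 FPKM at PND4 and 17.2 ± 2.07 FPKM at PND1 (SD, n = 4 each), a log2 difference of 0.81 (95% interval 0.47 to 1.16). Heavy-chain genes are close paralogs, and reads can be assigned to the wrong one. Of the 50-base windows in annotated H2-D1 transcripts 12.8% also occur in another gene, and of those of H2-K1 9.6%, while B2m has none.

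These genes were proposed with this contrast in view, so their values are a description, the counts that follow are read neither for nor against them, and no p is given for any of them. By the limma fit over all 10756 tested genes, 0 of the 7 class I genes passed an adjusted p of 0.05, as against 1 gene in all (0.0093%), which was lower at PND4. A log2 difference above 0 was had by 5 of the 7, beside 60.3% of all tested genes. All 4 PND4 libraries lay above all 4 PND1 libraries in 3 of the 7, beside 3.16% of all tested genes, and below them in 0 of the 7, beside 1.08%. The median log2 difference of the 7 was 0.74, and that of all tested genes was 0.078. All 7 passed the filter on low values, which asks for 1 FPKM in 4 libraries. H2-T23 had just 4 such libraries, and Tap1 had all 4 at PND4 but a single one at PND1, so it passed mainly through the age where it was higher.

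Scaling decided part of this separation. With median-of-ratios scaling H2-D1 alone kept the ages apart, at 27.6 to 33.2 FPKM at PND4 and 15.4 to 19.7 FPKM at PND1, beside 1.74% of all tested genes above and 1.67% below. B2m then ran from 180 to 288 FPKM at PND4 and from 107 to 187 FPKM at PND1, and H2-K1 from 46.8 to 61.2 FPKM at PND4 and from 23.6 to 53.0 FPKM at PND1. Upper-quartile scaling also left H2-D1 alone, beside 1.68% of all tested genes above and 1.78% below. The log2 differences with median-of-ratios scaling were 0.67 for B2m, 0.73 for H2-K1 and 0.74 for H2-D1, where the median of all genes was 0.0086. Of all tested genes with an unadjusted p under 0.05, 5.9% of the total, 437 were higher (4.06%) and 198 lower (1.84%) as deposited, against 243 and 323 with that scaling.

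**Figure D1:**
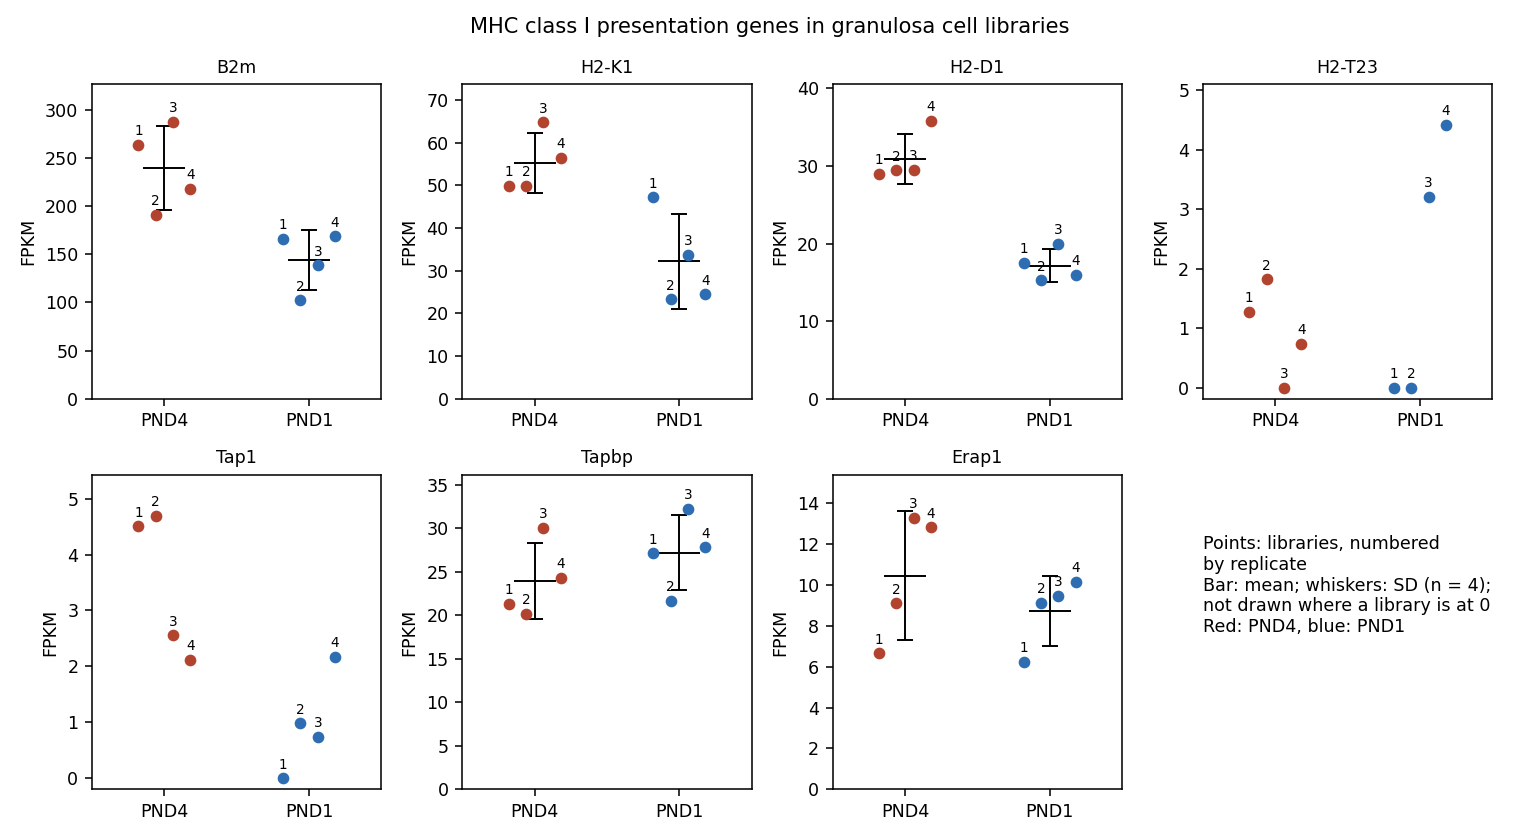
FPKM (vertical axes) of the 7 listed class I presentation genes in each library, PND4 (red) and PND1 (blue); numbers are replicates, and the bar and whiskers are the mean and SD of 4 libraries where none is at 0. B2m, H2-K1 and H2-D1 have every PND4 library above every PND1 library in the deposited values, and the other 4 genes overlap.

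H2-T23, which encodes the non-classical heavy chain Qa-1, was near the lower limit of the table. It was listed at 1.28, 1.82, 0 and 0.734 FPKM in the PND4 libraries, against 0, 0, 3.21 and 4.41 FPKM in the PND1 libraries. The highest values were in PND1 replicates 3 and 4, and libraries at 0 occurred at both ages. On the log2 scale the ages differed by -0.26 (95% interval -1.73 to 1.21). Leaving out PND1 replicate 3 (0.058), PND1 replicate 4 (0.18) or PND4 replicate 3 (0.032) gave a positive value. The gene is on chromosome 17 at 36029773 to 36032855, minus strand.

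The other class I heavy-chain genes were taken from a list of 13, of which H2-Q4 and H2-T22 were listed. H2-Q4, of the Qa region, had 6.81, 3.03, 4.15 and 5.21 FPKM at PND4, against 3.59, 3.58, 0.880 and 3.79 FPKM at PND1. The ages overlapped and differed by 0.60 on the log2 scale (limma, adjusted p = 0.819, unadjusted p = 0.154). H2-T22, a non-classical gene of the T region, stood at 10.46 ± 1.65 FPKM at PND4 and 13.6 ± 3.58 FPKM at PND1 (SD, n = 4 each), or -0.33 on the log2 scale (limma, adjusted p = 0.834, unadjusted p = 0.182). Of the H2-T22 windows 53.5% and 36.4% of those of H2-Q4 also occur in another gene, so both values are uncertain.

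Summed over the 5 listed heavy-chain genes, FPKM was 97.8, 96.0, 107 and 109 in the PND4 libraries, against 86.7, 56.0, 67.8 and 60.6 in the PND1 libraries. As a share of B2m, this sum was 37.1%, 50.3%, 37.03% and 50.04% in the PND4 libraries, against 52.2%, 54.7%, 48.9% and 35.9% in the PND1 libraries. The sum did not overlap between the ages as deposited. It did with median-of-ratios scaling (90.2 to 107 FPKM at PND4 and 58.5 to 97.4 FPKM at PND1) and with upper-quartile scaling (90.8 to 103 FPKM at PND4 and 57.6 to 96.2 FPKM at PND1). Its ratio to B2m, which no scaling moves, overlapped, at 43.6% ± 7.57 at PND4 and 47.9% ± 8.35 at PND1 (SD, n = 4 each). H2-D1 was 56.5% ± 7.66 of H2-K1 at PND4 and 56.7% ± 13.4 at PND1 (SD, n = 4 each). Both ratios overlapped between the ages, with wide spread.

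**Figure D2:**
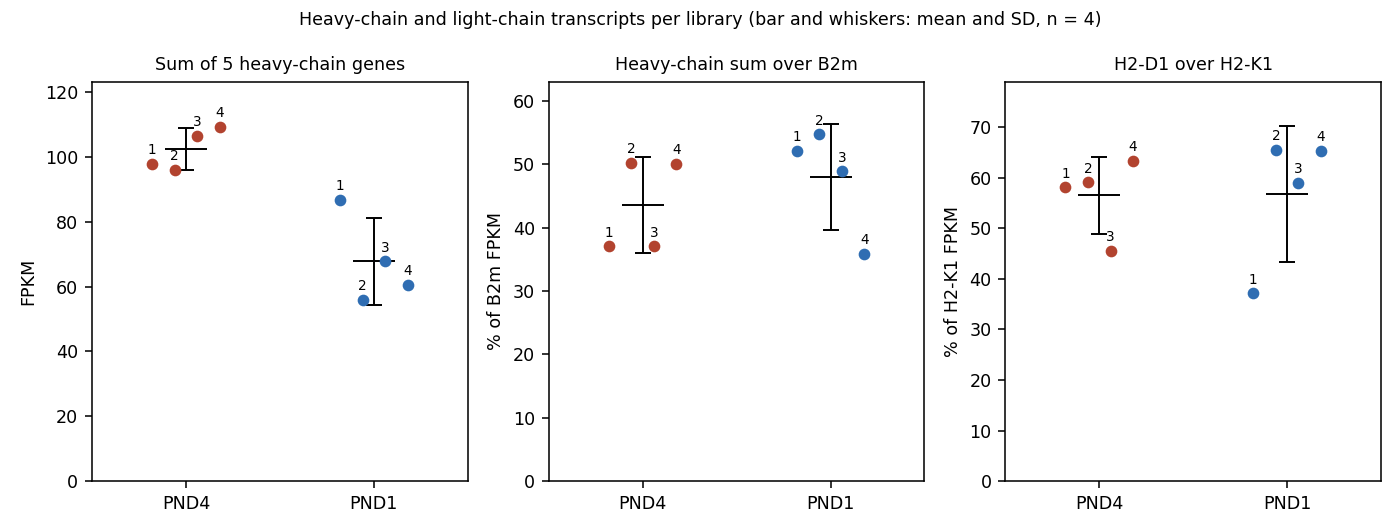
Left, summed FPKM of H2-K1, H2-D1, H2-T23, H2-Q4 and H2-T22; middle, that sum as a percentage of B2m; right, H2-D1 as a percentage of H2-K1, per library at PND4 (red) and PND1 (blue), with mean and SD of 4 libraries. As deposited the sum is 96.0 to 109 FPKM at PND4 and 56.0 to 86.7 FPKM at PND1, ranges that overlap with both other scalings, while both ratios overlap between the ages.

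The genes of peptide transport and loading varied more among themselves. Tap1 encodes a subunit of the peptide transporter (chromosome 17 from 34187553 to 34197225). It had 4.50, 4.69, 2.55 and 2.12 FPKM in the PND4 libraries, and was listed at 0, 0.981, 0.745 and 2.17 FPKM in the PND1 libraries. PND1 replicate 4 reached the level of PND4 replicate 4, and the other 3 PND1 libraries were lower. The log2 difference was 1.25 (95% interval 0.25 to 2.24). It rested on low values and moved with the pseudocount, from 0.50 with a pseudocount of 5 to 2.32 with one of 0.1.

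Tapbp encodes tapasin, which bridges the transporter and the heavy chain (chromosome 17 from 33915899 to 33929292). It had 21.3, 20.2, 30.04 and 24.3 FPKM in the PND4 libraries, against 27.1, 21.7, 32.2 and 27.8 FPKM in the PND1 libraries. The ages overlapped almost fully, at 23.96 ± 4.41 FPKM at PND4 and 27.2 ± 4.32 FPKM at PND1 (SD, n = 4 each), with a log2 difference of -0.18 (95% interval -0.57 to 0.21). Tapbp shares 904 exonic bases with the antisense gene Gm19412. No source used here says if strand was counted, so reads of both cannot be told apart.

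Erap1 encodes the aminopeptidase that trims peptides in the endoplasmic reticulum (chromosome 13 from 74639568 to 74693201). It had 6.66, 9.10, 13.3 and 12.8 FPKM in the PND4 libraries, against 6.23, 9.11, 9.46 and 10.14 FPKM in the PND1 libraries. The library numbered 1 was the lowest at both ages. The log2 difference was 0.21 (95% interval -0.37 to 0.79), and Erap1 shares 834 exonic bases with Cast on the opposite strand.

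By mean level at PND4 the order was B2m, H2-K1, H2-D1, Tapbp, Erap1, Tap1 and H2-T23. Between neighbours in this order, the libraries of H2-D1 and Tapbp overlapped, and no other pair did. At PND1 the order was B2m, H2-K1, Tapbp, H2-D1, Erap1, H2-T23 and Tap1, and there the pairs H2-K1 with Tapbp and H2-T23 with Tap1 overlapped. H2-D1 was above Tapbp in 3 of 4 PND4 libraries and in 0 of 4 PND1 libraries. The 5 tested genes with a mean of at least 10 FPKM whose profile over the 8 libraries was nearest to that of B2m were Lgals3, Mybbp1a, Idh3b, H2afz and Gm47428. Their root mean square differences from the B2m profile were 0.22 to 0.23 on the log2 scale, each profile centred on its own mean. On the same measure H2-K1 stood at 0.28 and H2-D1 at 0.29, places 52 and 61 among 5247 such genes. Tapbp stood at 0.50, Erap1 at 0.50, Tap1 at 0.64 and H2-T23 at 1.04. Erap1, Tap1 and H2-T23 have means under the 10 FPKM asked of the other genes. This measure includes the difference between the ages, which was known when the class I genes were chosen. Their places beside B2m are therefore a description and not a test. Lgals3, for galectin-3, had 61.9, 47.6, 84.6 and 76.6 FPKM at PND4, against 58.8, 33.4, 51.3 and 53.7 FPKM at PND1.

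Chaperones of peptide loading and of the translocon serve many glycoproteins besides class I. All 10 of that list were tested, with 6 higher and 4 lower at PND4, beside 60.3% of all tested genes higher. Their median difference was 0.065, with 0 past the adjusted test. Calreticulin (Calr) stood at 192 ± 23.04 FPKM at PND4 and 233 ± 41.6 FPKM at PND1 (SD, n = 4 each), or -0.27 on the log2 scale (limma, adjusted p = 0.805, unadjusted p = 0.0915). The oxidoreductase gene Pdia3 stood at 139 ± 11.9 FPKM at PND4 and 151 ± 18.9 FPKM at PND1 (SD, n = 4 each). Canx, for calnexin, stood at 120.5 ± 5.77 FPKM at PND4 and 106.6 ± 9.58 FPKM at PND1 (SD, n = 4 each). In the deposited values it was the 1 gene of the 10 with all PND4 libraries above all PND1 libraries, beside 3.16% of all tested genes. With both other scalings its ages overlapped. Hspa5 was higher at PND4 by 0.36 on the log2 scale. All these differences were smaller than those of B2m and the classical heavy chains. Those 3 genes were chosen with their values known, so this ranking is no test.

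Peptide supply was read from the proteasome. The immunoproteasome swaps in the catalytic subunits encoded by Psmb8, Psmb9 and Psmb10, and Psme1 and Psme2 encode the PA28 activator. Of 7 genes on that list 6 were listed and 5 tested, 3 higher and 2 lower, beside 60.3% of all tested genes higher. Their median log2 difference was 0.076. Psme2 had 48.7, 45.9, 50.4 and 50.2 FPKM in the PND4 libraries, against 37.1, 35.1, 28.7 and 36.6 FPKM in the PND1 libraries. The ages did not overlap, also with both other scalings, and differed by 0.50 on the log2 scale (95% interval 0.21 to 0.79, limma, adjusted p = 0.711, unadjusted p = 0.00269). Its partner Psme1 had 31.1, 24.3, 31.3 and 36.1 FPKM at PND4, against 49.95, 33.7, 30.1 and 36.6 FPKM at PND1. As a share of Psme1, Psme2 was 139% to 189% in the PND4 libraries and 74.3% to 104% in the PND1 libraries. Psme2 had the smallest p of its list and Psme1 was lower at PND4 (-0.27 on the log2 scale). Ratios of other gene pairs were not counted beside this one, so it is a description only. Of the Psme2 windows 28.3% also occur in Psme2b. Psme3, for the nuclear activator PA28 gamma, stood at 112 ± 15.2 FPKM at PND4 and 106 ± 4.54 FPKM at PND1 (SD, n = 4 each).

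Psmb9 was listed at 3.55, 1.27, 0 and 0.290 FPKM in the PND4 libraries and at 0 in all 4 PND1 libraries, and was not tested. Psmb9 and Tap1 lie head to head and share 212 exonic bases on opposite strands. The highest values of both were in PND4 replicates 1 and 2. Psmb10 stood at 7.11 ± 4.35 FPKM at PND4 and 7.03 ± 1.44 FPKM at PND1 (SD, n = 4 each). Among the 3 constitutive catalytic genes all 3 were higher at PND4, beside 60.3% of all tested genes. Their median was 0.14, and Psmb5 differed by only 0.028. Psmb7 stood at 112 ± 14.6 FPKM at PND4 and 79.2 ± 8.60 FPKM at PND1 (SD, n = 4 each), or 0.50 on the log2 scale (limma, adjusted p = 0.711, unadjusted p = 0.00271). The ages did not overlap in the deposited values and overlapped with both other scalings. Psmb5 had 75.5 ± 15.9 FPKM at PND4 and 73.0 ± 5.92 FPKM at PND1 (SD, n = 4 each).

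**Figure D3:**
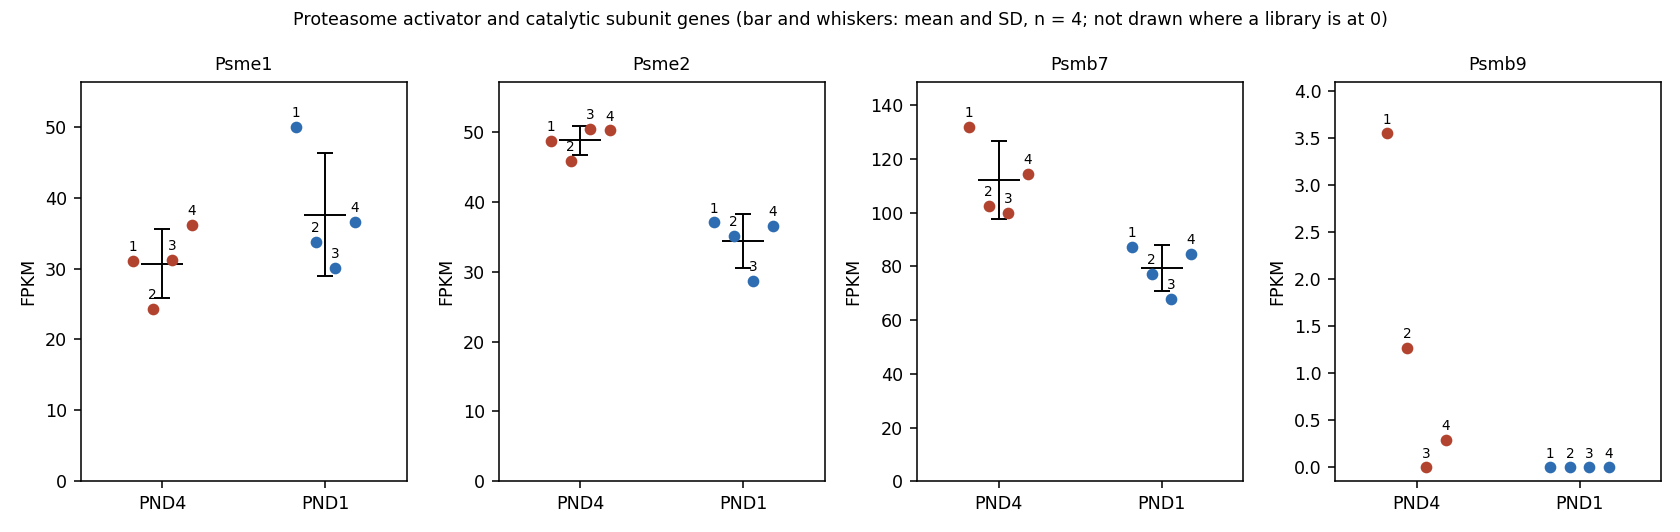
FPKM (vertical axes) of Psme1, Psme2, Psmb7 and Psmb9 per library at PND4 (red) and PND1 (blue), with mean and SD of 4 libraries where none is at 0. Psme2 has 45.9 to 50.4 FPKM at PND4 and 28.7 to 37.1 FPKM at PND1, while Psme1 overlaps between the ages.

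Cytosolic peptidases trim or destroy proteasome products. All 8 listed were tested, 7 higher and 1 lower, beside 60.3% of all tested genes higher. Their median was 0.16, beside 0.078 over all tested genes. Lap3, for leucine aminopeptidase, stood at 56.0 ± 7.50 FPKM at PND4 and 44.0 ± 5.37 FPKM at PND1 (SD, n = 4 each), or 0.34 on the log2 scale (limma, adjusted p = 0.805, unadjusted p = 0.0362). Ide, for insulin-degrading enzyme, stood at 70.7 ± 20.7 FPKM at PND4 and 67.7 ± 7.82 FPKM at PND1 (SD, n = 4 each). Of the other partners of B2m, 3 of 6 were listed. The neonatal Fc receptor gene Fcgrt was listed at 1.70, 5.81, 7.53 and 7.57 FPKM at PND4, against 0, 8.93, 3.91 and 5.84 FPKM at PND1 (log2 difference 0.50, limma unadjusted p = 0.465, adjusted p = 0.906).

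Regulators of class I had a median difference near 0. Of 22 genes on that list 18 were tested, 7 higher and 11 lower, beside 60.3% of all tested genes higher. Their median was -0.017, and 0 had an unadjusted limma p under 0.05. Without PND4 replicate 1, which can only raise such a count, all PND4 libraries lay above all PND1 libraries in 2 of the 18, beside 7.45% of all tested genes. Rela, an NF-kappa-B subunit gene, stood at 34.8 ± 7.17 FPKM at PND4 and 34.5 ± 3.09 FPKM at PND1 (SD, n = 4 each). Atf1, a CREB family gene, stood at 30.5 ± 3.28 FPKM at PND4 and 25.3 ± 3.17 FPKM at PND1 (SD, n = 4 each), or 0.26 on the log2 scale (limma, adjusted p = 0.805, unadjusted p = 0.115). Of the interferon receptor and kinase list 7 of 9 genes were tested, 3 higher and 4 lower, with the same 60.3% beside them. Their median was -0.063. Ifngr2, a chain of the interferon gamma receptor, stood at 37.0 ± 4.72 FPKM at PND4 and 29.6 ± 3.88 FPKM at PND1, and the kinase gene Jak1 at 33.0 ± 1.82 FPKM at PND4 and 32.8 ± 3.73 FPKM at PND1 (SD, n = 4 each).

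Interferon-stimulated genes had mostly lower mean values at PND4. Of 32 genes on that list 19 were tested, and 5 were higher and 14 lower at PND4, beside 60.3% of all tested genes higher. Their median difference was -0.35 and 0 passed the adjusted test. Unadjusted, 3 of the 19 were under 0.05 as lower and 0 as higher, beside 1.84% and 4.06% of all tested genes. All PND4 libraries lay below all PND1 libraries in 2 of the 19, beside 1.08% of all tested genes. Without PND4 replicate 1, which can only raise such a count, this was so in 4 of the 19, beside 1.78%. The list was chosen with earlier results of these data known, so its counts are a description and not a test. Ifitm1, for an antiviral membrane protein, was listed at 0.834, 0, 0 and 1.55 FPKM in the PND4 libraries, against 9.76, 2.57, 4.47 and 6.48 FPKM in the PND1 libraries (log2 difference -2.10, limma unadjusted p = 0.00109, adjusted p = 0.556). Ddx58, for the RNA sensor RIG-I, stood at 2.55 ± 0.368 FPKM at PND4 and 4.92 ± 0.690 FPKM at PND1 (SD, n = 4 each). Ifitm2 and Ifitm3, relatives of Ifitm1, were abundant. Ifitm2 had 110 ± 8.89 FPKM at PND4 and 134 ± 25.9 FPKM at PND1, and Ifitm3 88.1 ± 44.6 FPKM at PND4 and 107 ± 27.7 FPKM at PND1 (SD, n = 4 each). Among the 5 higher genes, Ifi27 had 43.4 ± 14.8 FPKM at PND4 and 29.5 ± 5.49 FPKM at PND1 (SD, n = 4 each). Bst2, also higher, had 42.1 ± 20.3 FPKM at PND4 and 32.7 ± 13.7 FPKM at PND1 (SD, n = 4 each). Some of the lower genes, such as Ifit1 and Usp18, rest on low values with libraries at 0.

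**Figure D4:**
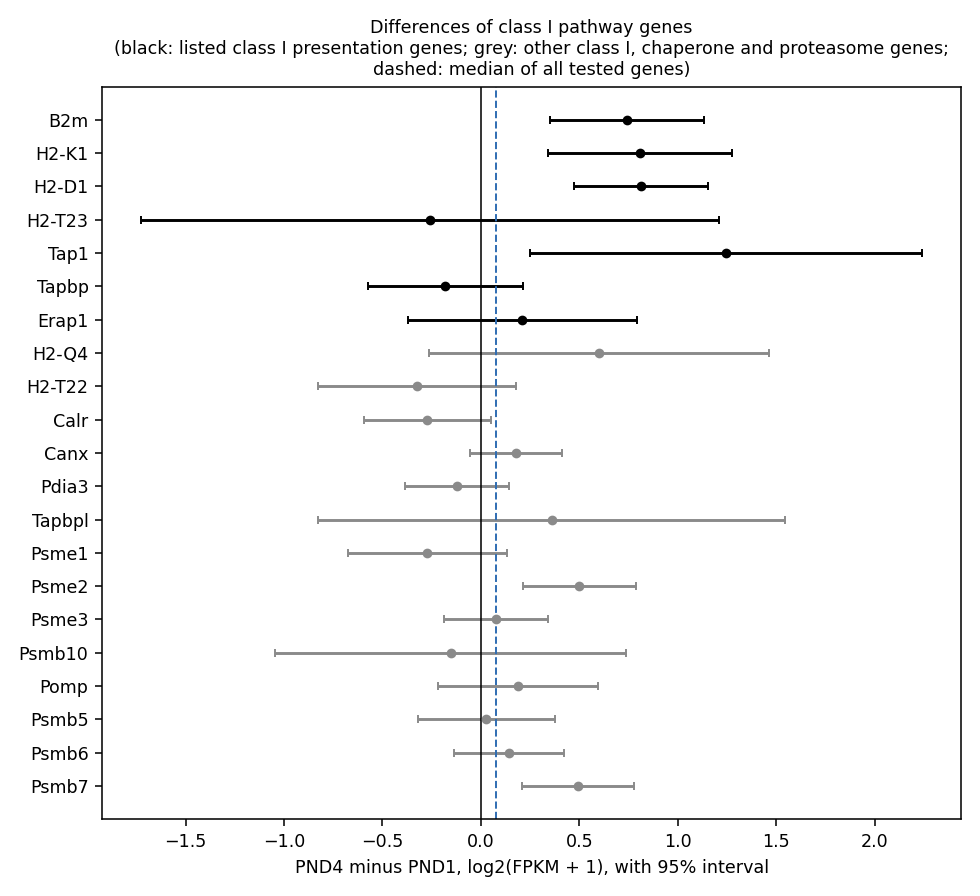
Log2 difference on the log2(FPKM + 1) scale, PND4 minus PND1 (horizontal axis), with its 95% limma interval, for the 7 class I presentation genes (black) and other class I, chaperone and proteasome genes (grey). The black genes, among them B2m (0.74), H2-K1 (0.81), H2-D1 (0.81) and Tap1 (1.25), were chosen with this contrast known. Their intervals are a description and not a test. Of the grey genes, Psme2 (0.50) and Psmb7 (0.50) have unadjusted intervals above 0, each with a limma adjusted p of 0.711. The dashed line is the median of all tested genes (0.078).

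Because leukocytes carry much class I, their transcripts are given beside these values. The PND4 library numbered 1, with 85.8 FPKM of S100a8, 110 of S100a9, 55.8 of Lyz2 and 6.55 of Coro1a but Cd68 and C1qb at 0, had 264 FPKM of B2m, 49.9 of H2-K1 and 29.0 of H2-D1. The PND4 library numbered 3, with more B2m (288 FPKM) and H2-K1 (64.8 FPKM), had Cd52, Laptm5, Coro1a, C1qb and S100a8 at 0. This library had 11.3 FPKM of Lyz2 and 11.1 FPKM of S100a9, both below PND4 replicate 1. Its Cd68 (7.22 FPKM), Csf1r (4.02 FPKM) and Fcer1g (2.84 FPKM) were the highest of the 8 libraries. Without PND4 replicate 1 the log2 differences were 0.69 for B2m, 0.86 for H2-K1, 0.84 for H2-D1 and 1.13 for Tap1. Leaving out a library cannot add overlap, so the 3 genes without overlap stay so by construction, beside 7.45% of all tested genes above and 1.78% below in the same 7 libraries. Of 8 class II genes, 2 were listed. H2-Aa was listed at 3.23 and 0.868 FPKM in PND4 replicates 1 and 2 and at 0 in the other 6 libraries. Cd74, the class II invariant chain, reached 3.27 FPKM in PND4 replicate 3 and at most 1.18 FPKM elsewhere. PND4 replicate 3, with the most oocyte transcripts, also had the most B2m and H2-K1. Without it the log2 differences were 0.65 for B2m, 0.73 for H2-K1 and 0.84 for H2-D1.

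Marker sums of 8 cell types were compared by exact two-sided permutation over 70 assignments of libraries to ages, where the smallest possible p is 0.0286, and 0 of 8 passed adjustment. The leukocyte sum had an exact p of 0.714 (adjusted p = 0.857), with means of 82.6 FPKM at PND4 and 22.5 FPKM at PND1. The endothelial sum rested on Eng and Esam, 2 of 14 markers, and was 10.8 to 13.3 FPKM at PND4 and 4.06 to 13.3 FPKM at PND1 (exact p = 0.114, adjusted p = 0.305). Stroma markers summed to 216 to 279 FPKM at PND4 and 200.2 to 226 FPKM at PND1 (exact p = 0.0857, adjusted p = 0.305). Of the 11 stroma markers tested, 9 were higher and 2 lower at PND4, beside 60.3% of all tested genes higher. Lox, the most abundant, was lower (-0.18 on the log2 scale). Dcn, for the matrix proteoglycan decorin, had 30.7, 30.3, 45.4 and 38.1 FPKM at PND4, against 16.4, 20.2, 16.7 and 26.2 FPKM at PND1. The difference was 0.83 on the log2 scale (limma, adjusted p = 0.556, unadjusted p = 0.00133). In the deposited values Dcn was the 1 gene of the 11 with all PND4 libraries above all PND1 libraries, beside 3.16% of all tested genes. Its overlap with the other scalings was not examined. Tcf21, a stromal transcription factor gene, differed by 1.27 (limma, adjusted p = 0.736, unadjusted p = 0.00355) and Col1a1 by 0.45 (limma, adjusted p = 0.805, unadjusted p = 0.0486), both higher at PND4. The erythroid sum rested on the globin genes Hba-a1, Hba-a2 and Hbb-bs, 3 of 7 markers. It was 0.269 to 11.4 FPKM at PND4 and 17.1 to 48.9 FPKM at PND1 (exact p = 0.0286, adjusted p = 0.229). Smooth muscle (exact p = 0.657), oocyte (exact p = 0.857), surface epithelium (exact p = 0.857) and granulosa sums (exact p = 0.629) had larger p-values, each with an adjusted p of 0.857. The surface epithelium and granulosa sums share Krt18 and Krt8, so their tests are not independent. The part of these cells in the class I values was not tested.

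**Figure D5:**
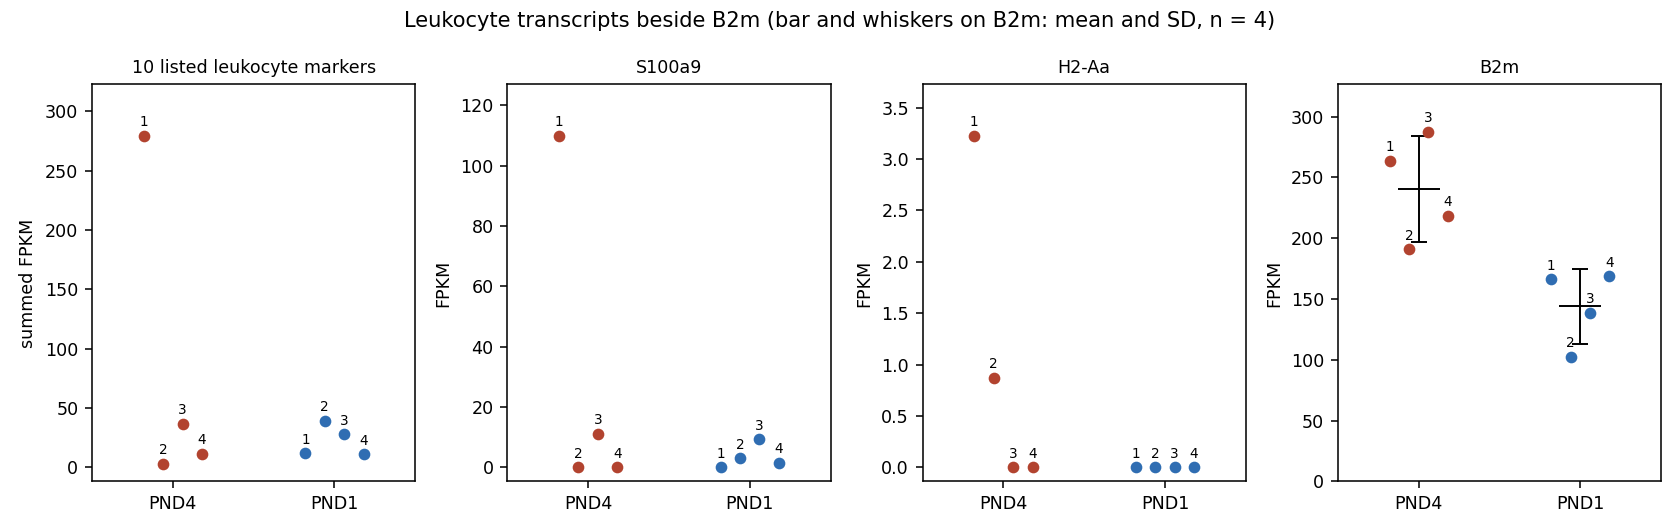
From left, summed FPKM of the 10 listed leukocyte markers, then FPKM of S100a9, H2-Aa and B2m, per library at PND4 (red) and PND1 (blue), with mean and SD of 4 libraries for B2m. PND4 replicate 1 stands apart in the first 3 panels at 280, 110 and 3.23 FPKM, while in B2m it lies within the PND4 range of 191 to 288 FPKM.

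In the authors' deposited table, whose fold is PND1 over PND4, H2-D1 had a fold of 0.577, H2-K1 of 0.556, B2m of 0.591 and Tap1 of 0.441. The same deposited table gives 1.17 for Tapbp, 1.39 for H2-T23 and 0.957 for Erap1. By its own test 0 of 11783 genes had a q-value under 0.05.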

How the data were processed

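The submitters' processing notes name Trim Galore, HISAT2 and the GRCm38 build. The authors deposited FPKM for 11783 filtered genes in 8 libraries; which program, annotation, strand setting and filter made them is not stated. The authors also deposited for each gene a p-value, a q-value, a fold (a ratio) and the log2 of that fold, from an unnamed test, and a sum of the FPKM per gene, a score that was not used. In 2467 genes of 1 transcript, low values were checked for steps worth 1 read. The best unit put 26.4% to 33.6% within 0.1 of a multiple, where 20% would fall by chance at any 1 unit, so depth stays unknown.

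Ages were compared as PND4 minus PND1 on log2(FPKM + 1) with limma 3.58.1 (R 4.3.3), letting the prior variance follow the mean, with Benjamini-Hochberg adjustment, over 10756 genes with at least 1 FPKM in 4 libraries. The step was tested on simulated data. Positions came from GENCODE M21, which holds 11770 of the identifiers, and overlap between genes from its transcripts. The members and lists were chosen with earlier results of these data known. Of each pathway list, the 2 most abundant tested genes and the one with the smallest p are named; other names, the promoter strings and the overlap counts under each scaling were chosen after values were seen. Alternatives were 2 scalings, 2 pseudocounts, 2 filters, a replicate block and leaving out each library.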

Additional observations from a re-analysis of the deposited data

Results flagged for a closer look

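In 118 groups of 4 libraries, the gap of 1 library to the others exceeded Dixon's limit for 12; about 1 in 20 groups does so by chance. H2-D1 at PND4 had its highest library at 35.8 FPKM, above 3 libraries close together. H2-Q4 at PND1 had its lowest at 0.880 FPKM. PND4 replicate 1 was the highest for S100a9 (110 FPKM) and for the leukocyte sum (280 FPKM), and the lowest PND4 library for Krt18 (379 FPKM). PND4 replicate 3 was the highest for Zp3 (61.3 FPKM) and for the oocyte sum (234 FPKM). PND1 replicate 2 was the highest for Tagln (813 FPKM) and the smooth muscle sum (1537 FPKM), and the lowest for Krt18 (378 FPKM) and the granulosa sum (1000 FPKM). It was also the PND1 library with the lowest B2m, H2-K1, H2-D1 and Tapbp. Wnt4 at PND1 had its lowest library at 18.0 FPKM.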

How the results depend on the processing

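The count of 1 gene past the adjusted test held in all 15 alternatives (1 to 1 on leaving out a library), and 0 of the class I genes passed in any. With the replicate block 1 gene passed and 687 had an unadjusted p under 0.05, against 635; same-numbered libraries did not deviate together (correlations -0.0088 to 0.12), so the numbers were not taken to pair them. B2m ran from 0.59 to 0.85 over 15 alternatives, H2-K1 from 0.68 to 1.01, H2-D1 from 0.70 to 0.89, Erap1 from 0.073 to 0.39 and Tapbp from -0.29 to -0.097, each with 1 sign. Over 14 alternatives Tap1 ran from 0.50 to 2.32, and H2-T23 from -0.63 to 0.18 with 4 above 0, among them a pseudocount of 0.1 (0.14). Over 15 alternatives Psme2 ran from 0.42 to 0.54 (adjusted p 0.557 to 0.888) and Psmb7 from 0.41 to 0.55 (adjusted p 0.580 to 0.888). Adjusted p ran from 0.467 to 0.888 for Ifitm1.

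With 1 library left out, differences of marker sums (PND4 minus PND1, FPKM) took both signs for leukocytes (-5.52 to 86.7), smooth muscle (-202 to 75.9), oocytes (-18.04 to 52.9), surface epithelium (-146 to 66.1) and granulosa markers (-117 to 22.2). As means of log2(FPKM + 1), surface epithelium (0.12) and granulosa (0.12) differences turned positive. The stroma difference stayed positive throughout (27.5 to 48.5 with 1 library left out). With same-numbered libraries paired, the smallest possible p was 0.125. In the regulator list, 2 genes lost their overlap between the ages without PND4 replicate 1. Depth is unknown, and Tap1, H2-T23 and Psmb9 rest on low values. Over all tested genes the median 95% interval reached 0.65 to either side.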
